A study of Mus musculus with 5 samples.

Results

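The histone genes of the mouse count table were described across neutrophil stages and other blood and tissue cells. Members were the rows whose symbol starts with Hist1h, Hist2h, Hist3h, Hist4h, H2af or H3f3, together with H1f0 and H1fx. The rule took 76 of 21995 genes. Of these, 65 were replication-dependent genes (symbols starting with Hist), 10 were replacement genes (H1f0, H1fx, H2afj, H2afv, H2afx, H2afy, H2afy2, H2afz, H3f3a and H3f3b) and 1, H3f3aos, was an antisense transcript of H3f3a. The cells came from C57BL/6 mice with no stated genetic change or treatment, young (10 weeks in the sample labels, 8 weeks in the design text) and old (20 months). The source organs were marrow and blood, intestine, liver, lung and spleen, and cells were sorted as DAPI- CD11b+Ly6G+. Live cells that carry Ly6G, the usual marker of mouse neutrophils, were loaded on a BD Rhapsody cartridge, which captures the poly(A) end of transcripts with a molecular barcode (unique molecular identifier, UMI). The experiment was run in 2 cartridges, giving the pools YO1 and YO2, each with all ages and tissues mixed. A cell's barcode gives its pool but not its age or tissue, so those comparisons were not analysed here. The share of each age and tissue in a pool was not measured. A difference between the pools therefore cannot be told apart from a difference in that mix.

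Histones are the proteins that DNA is wound on. Replication-dependent genes are copied mainly while a cell duplicates its DNA, and their messages classically end in a short hairpin, the histone stem-loop, in place of a poly(A) tail. The stem-loop is bound by Slbp, which guides processing and later use of the message. Replacement histones are made from ordinary polyadenylated messages throughout the cell cycle and enter chromatin outside replication. Neutrophils divide as marrow progenitors and fill their secondary granules with lactoferrin (Ltf) and neutrophilic granule protein (Ngp). They then leave the marrow as cells rich in S100a8 and S100a9 that can release their chromatin as extracellular traps.

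The stem-loop is shown because the annotated transcripts differ in whether they end at it, and the libraries were made by poly(A) capture. Searched in the GENCODE vM21 coding transcripts (GRCm38), the histone stem-loop motif of 16 bases was found in 47 members and in 87 of 58797 coding transcripts (0.148%). Capitals mark the motif and lower case the 4 bases on each side, 5′ to 3′, in the first 4 for genes whose annotated transcript runs on for at least 100 bases and in the last 3 for genes whose annotated transcript stops near it.
Hist1h1c: aaaaGGCTCTTTTCAGAGCCacca
Hist1h2be: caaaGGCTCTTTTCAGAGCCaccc
Hist1h4i: taaaGGCCCTTTTTAGGGCCacca
H2afx: caaaGGCCCTTTTAAGGGCCacca
Hist1h2bb: caaaGGCTCTTTTAAGAGCCaccc
Hist1h3c: aaaaGGCTCTTTTAAGAGCCacct
Hist1h4f: caaaGGCCCTTTTCAGGGCCaccc
The core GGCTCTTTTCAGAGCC was the most frequent of 9 and stood in 26 members. Of the 65 replication-dependent genes, 23 had an annotated transcript that runs at least 100 bases past the stem-loop. Another 23 had one that ends within 100 bases of it, and 19 had no motif in the annotated transcript, Hist1h2bc and Hist1h1b among them. H2afx was the 1 replacement gene with the motif, followed by 822 further bases. Hist1h1c ran on for 840 bases, Hist1h2be for 1861, Hist1h2ac for 2010, Hist3h2a for 1643 and Hist1h4i for 330, whereas Hist1h4f ended after 33. The groups that this annotation makes were compared below.

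Promoters are shown for 2 H1 linker genes, Hist1h1b and Hist1h1c, of which the first was highest in cycling and the second in mature cells. The windows hold 250 bases before and 50 after the start in RefSeq (GRCm38.p6), with the letters CCAAT (or ATTGG on the other strand) and TATAAA (or TTTATA) in capitals.
Hist1h1b, chr13:21780576-21780875, minus strand: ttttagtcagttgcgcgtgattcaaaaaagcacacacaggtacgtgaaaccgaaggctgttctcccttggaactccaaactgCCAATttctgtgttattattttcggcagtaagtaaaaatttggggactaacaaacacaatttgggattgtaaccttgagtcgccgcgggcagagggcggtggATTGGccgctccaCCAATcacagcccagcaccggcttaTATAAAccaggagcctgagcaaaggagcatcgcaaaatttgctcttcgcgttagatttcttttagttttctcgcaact
Hist1h1c, chr13:23738557-23738856, plus strand: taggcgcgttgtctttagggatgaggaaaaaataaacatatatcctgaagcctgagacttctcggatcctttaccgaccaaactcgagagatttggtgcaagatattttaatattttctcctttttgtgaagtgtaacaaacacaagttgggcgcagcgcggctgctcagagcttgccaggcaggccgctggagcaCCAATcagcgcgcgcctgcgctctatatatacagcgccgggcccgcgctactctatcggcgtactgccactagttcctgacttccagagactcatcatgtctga
Both windows hold CCAAT, and TATAAA stands in that of Hist1h1b. CCAAT was found in 50 of 59 replication-dependent genes with a promoter entry (84.7%), in 6 of 9 replacement genes and in 37.4% of all 32851 promoters. TATAAA was found in 34 of the 59 (57.6%), in 1 of 9 replacement genes and in 13.6% of all promoters.

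YO1 held 20352 barcodes with 39713846 UMIs and YO2 17720 barcodes with 41839786 UMIs. Filters of 200 UMIs and 100 genes as minimum and 20% mitochondrial UMIs as maximum left 19505 and 17215 cells, with a median of 1231 and 1454 UMIs. Cycling cells had at least 2 UMIs of Mki67 and Top2a, which only dividing cells express strongly (828 in YO1 and 182 in YO2). Of the other cells, those with at least 5 Ltf UMIs were called Ltf-high (2234 and 451). Those with at least 10 Ngp and under 5 Ltf UMIs were called Ngp-high Ltf-low (444 and 33). Those with S100a8 and S100a9 at 2% or more of UMIs and under 3 Ngp UMIs were called mature (10325 and 10045). Other lineages were named from marker genes. The pools shared 406 cell numbers (1.99% of YO1 and 2.29% of YO2), and 13.5% and 21.3% of cells fell in no class. Levels below are CPM, the UMIs of a gene scaled to 1e+06 UMIs of the class, in YO1 and then YO2, 1 sum per pool, and fold changes are log2 values from edgeR on these sums with trimmed mean scaling.

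The cycling class was not made of neutrophil progenitors alone. Markers of another lineage were present in 21.0% of its cells in YO1 and 52.7% in YO2, against 6.27% and 4.21% of Ltf-high cells. All 6 plasma cell markers were detected in it, at a summed 259 and 5853 CPM, compared with 96.7 and 58.8 in Ltf-high cells. The azurophil granule genes (Elane, Mpo, Prtn3, Ctsg and Ms4a3) summed to 4300 CPM in cycling cells of YO1 and to 22.8 in YO2. Cycling cells with at least 5 Ltf, 10 Ngp or 5 azurophil granule UMIs were taken as carrying granule genes (715 and 65 cells). Their values are given beside those of the class, and the part of the other cells in its results was not tested beyond these values.

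In all, 56554 UMIs of replication-dependent genes and 263676 of replacement genes were counted in kept cells. Hist1h2bc, an H2B gene, and Hist1h1c, the linker histone H1.2, held 77.6% of the replication-dependent UMIs, and with Hist1h4i, Hist1h2be and Hist3h2a 89.6%. In contrast, 44 of the 65 replication-dependent genes had under 100 UMIs. Sequence is shared widely in the family: in 36 members under 50% of the annotated 42-base windows, the length of the second read of these libraries, were found in no other gene. Windows were unique for 68.3% of Hist1h2bc, 90.5% of Hist1h1c, 68.95% of Hist1h4i and 83.2% of Hist1h2be. Hist1h2ap, with 6.80% unique windows, had 1 UMI in all cycling cells. How reads that match several genes were counted is not given in the sources used here, so single genes with few unique windows carry that uncertainty. Some members also overlap another annotated gene on the same strand, such as Hist1h2be with Hist1h1e and Gm11398, and Hist3h2a with Trim17. How reads in such overlaps were counted is not given either.

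Summed over the 65 genes, replication-dependent message counted by poly(A) capture took a larger share of UMIs in mature neutrophils than in dividing cells. Message without a poly(A) tail is not caught this way, so the sum does not measure all histone message. Per cell the order was reversed. Cycling cells, 828 and 182, held 3097 and 515 of these UMIs, and 10325 and 10045 mature cells held 13565 and 18518. Cycling cells were deeper, with a median of 6212.5 and 7928.5 UMIs against 1029 and 1353. Hist1h2bc and Hist1h1c held most of the mature sum. Gene by gene, 30 of 46 genes with at least 20 UMIs were highest in cycling cells and 6 in mature cells, in both pools. The sum was 545 CPM (95% counting interval 526 to 564) in cycling cells of YO1 and 367 (336 to 399.8) in YO2. It was 162 and 281 in Ltf-high cells, 433 and 443 in Ngp-high Ltf-low cells, and 1082 and 1148 in mature cells. In both pools the mature class was the highest of the 4 and the Ltf-high class the lowest. Cycling cells with granule genes held 560.4 and 574 CPM, closer between the pools than the whole class. Replacement message was highest in cycling cells, with 6132 and 4648 CPM in cycling cells, 2834 and 2765 in Ltf-high, 2741 and 2752 in Ngp-high Ltf-low and 3259 and 3189.9 in mature cells. After each cell was thinned to 1000 UMIs, 40.8% of cycling cells in YO1 and 25.8% in YO2 had any replication-dependent UMI, compared with 12.3% and 17.9% of Ltf-high and 53.4% and 54.0% of mature cells. Without thinning these shares were 83.8% and 76.4%, 29.8% and 40.8%, and 57.9% and 63.9%, since cycling cells were the deepest. The thinning left out 4740 and 1115 mature cells, against 20 and 4 cycling cells.

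**Figure D1:**
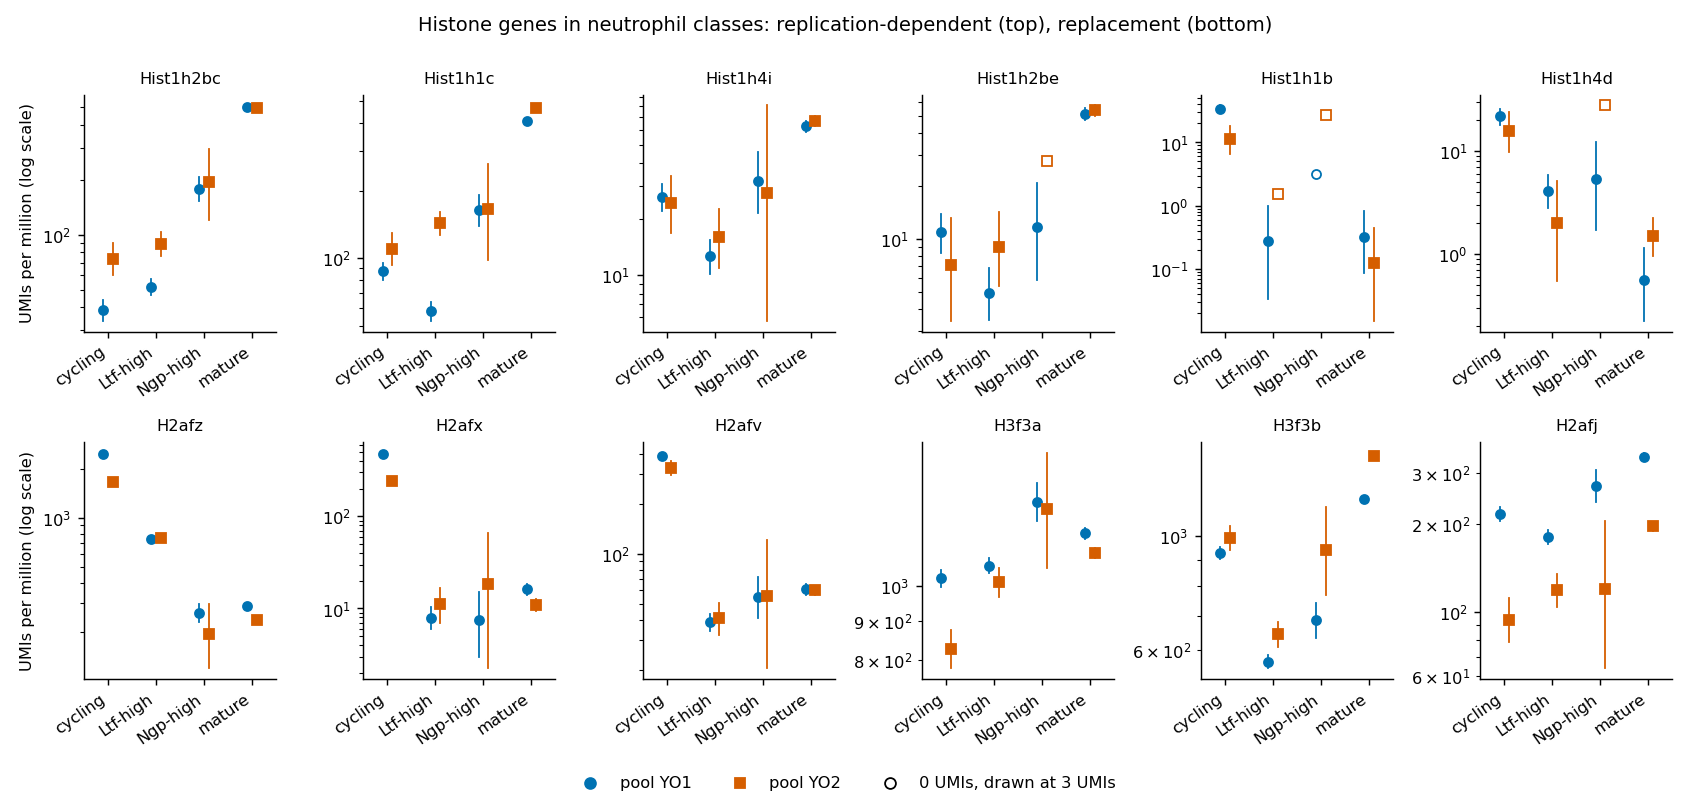
Level of 6 replication-dependent genes (top) and 6 replacement genes (bottom) in CPM on a log axis, by neutrophil class, for pool YO1 (circles) and YO2 (squares). Lines are 95% counting intervals and open symbols mark 0 UMIs, drawn at 3 UMIs. Hist1h2bc, Hist1h1c, Hist1h4i and Hist1h2be are highest in mature cells in both pools, and Hist1h1b, Hist1h4d, H2afz, H2afx and H2afv in cycling cells.

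Against Ltf-high cells, 6 replication-dependent genes rose in mature neutrophils. They were 1 H1, 2 H2A, 2 H2B and 1 H4 gene, and no replication-dependent H3 gene passed the expression filter. Hist1h2bc, on chromosome 13 (23684199 to 23692908, plus strand), stood at 52.0 CPM in Ltf-high cells of YO1 and 89.0 in YO2, and at 499 and 495 in mature cells. Its Ngp-high Ltf-low values, 179 and 194, lay between, and neither mature value overlapped an Ltf-high value. It rose by 2.91 ± 0.33 (SE, edgeR adjusted p = 1.1e-05). Hist1h1c, a linker histone that closes the nucleosome (chromosome 13, 23738808 to 23740367), went from 57.9 and 143 CPM to 409 and 469.9. It rose by 2.26 ± 0.36 (adjusted p = 0.00020). Hist1h2be, another H2B gene, went from 4.95 and 9.05 CPM to 51.5 and 54.1, a log2 change of 3.07 ± 0.42 (adjusted p = 6.2e-05). Hist1h2ac rose by 2.84 ± 0.55, Hist1h4i by 2.24 ± 0.43 and Hist3h2a by 1.95 ± 0.39. In each of the 6 genes both mature values lay above both Ltf-high values. The endothelial marker list (8 genes) summed to 561 and 13.3 CPM in mature cells and 86.9 and 5.03 in Ltf-high cells. Without neutrophil-class cells that carried other lineage markers, Hist1h2bc stood at 3.24, Hist1h1c at 2.52, Hist1h2be at 3.34 and Hist1h2ac at 3.45. Hist1h4i then stood at 2.52 and Hist3h2a at 2.19. The part of endothelial message left in the remaining cells was not tested. Hist1h2bc itself was lower in endothelial than in mature cells, at 115 and 118 CPM.

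Of the 19 members that passed the expression filter, 9 were higher and 1 lower in mature than in Ltf-high cells by edgeR. Of all 10829 genes tested, 13.9% and 10.2% were. Without neutrophil-class cells that carried other lineage markers, H1f0 and Hist1h4d were called lower too. They stood at -1.62 and -2.55 (edgeR adjusted p = 0.0030 and 0.0034). In the fit of all cells, the 3 replacement genes that rose as a share of UMIs were H3f3b, H2afj and H2afv, and H2afz fell. Mature cells were shallower, with a median of 1029 and 1353 UMIs against 2986 and 4208. Per cell, the 3 genes had fewer UMIs in mature cells. H3f3b had 4149 and 1281 UMIs in 2234 and 451 Ltf-high cells, and 14803 and 23155 in 10325 and 10045 mature cells. H3f3b, which encodes the replacement histone H3.3, went from 571 and 644 CPM to 1181 and 1436 (1.15 ± 0.36, adjusted p = 0.024). H3f3a encodes the same protein and stood at 1061 and 1009 CPM in Ltf-high cells and 1169 and 1103 in mature cells (0.19 ± 0.24, adjusted p = 0.61). H2afj and H2afv differed by 0.88 ± 0.26 and 0.66 ± 0.23. H2afz, the H2A.Z variant found around promoters, dropped from 742 and 751 CPM to 289 and 237, and it fell by 1.48 ± 0.31 (adjusted p = 0.0020). With any 1 of the 4 sums left out, 5 to 7 members stayed called higher. Hist1h2bc, Hist1h1c, Hist1h2be, Hist1h4i and Hist3h2a were called in all 4 of these fits, H3f3b and H2afv in none and H2afz in 2. Hist1h2ac was lost without the YO1 Ltf-high sum (2.21, adjusted p = 0.068) and H2afz without the YO2 Ltf-high sum (-1.12) or the YO1 mature sum (-1.25).

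**Figure D2:**
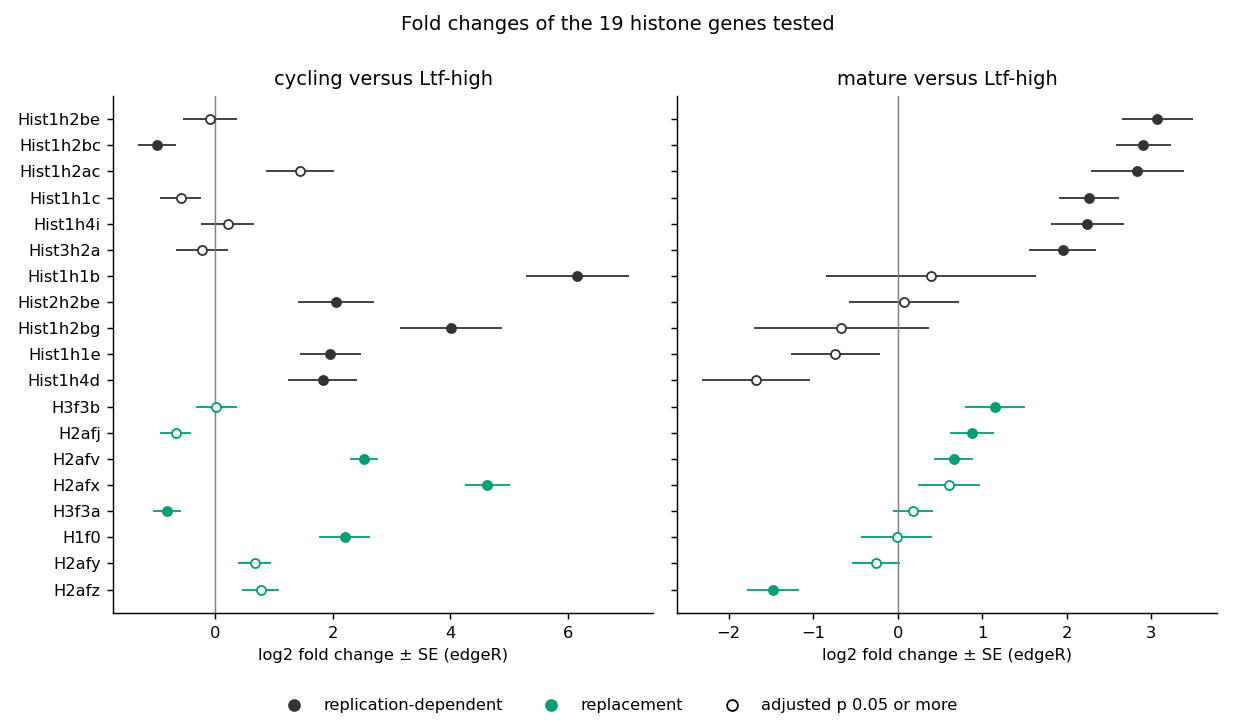
Log2 fold change with its standard error (edgeR) of the 19 histone genes tested, in cycling (left) and mature cells (right), each against Ltf-high cells. Both panels use the same Ltf-high sums, so they are not independent. Filled symbols have an edgeR adjusted p under 0.05, and open symbols do not. Hist1h2bc stands at -0.98 on the left and 2.91 on the right, both filled. Hist1h1b stands at 6.16 (filled) and 0.40 (open).

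Cycling cells were also compared with Ltf-high cells. Of the 19 members tested, 8 were higher and 2 lower, where 21.0% and 17.5% of all genes tested were. The filter kept several of these, such as Hist1h1b and Hist1h2bg, only through cells that express them, so the count does not describe the family as a whole. With no filter, 32 of all 76 members were higher (29 of them replication-dependent) and 1 was lower, where 12.0% and 8.57% of all genes were.

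Hist1h1b (chromosome 13, 21779883 to 21780625, minus strand), the linker histone H1.5, stood at 33.6 and 11.4 CPM in cycling cells, at 0.275 CPM from 2 UMIs in Ltf-high cells of YO1 and at 0 UMIs in those of YO2. In mature cells it was at 0.319 and 0.124 CPM, from 4 and 2 UMIs. It rose by 6.16 ± 0.88 (edgeR adjusted p = 0.00013), a fitted value that depends on how 0 is handled. The filter kept Hist1h1b only through cells that express it, so the call was largely fixed beforehand and is not separate support. Hist1h2bg stood at 11.96 and 9.97 CPM in cycling cells and at 0.550 and 0 in Ltf-high cells (4.01 ± 0.86). Hist1h1e, the linker histone H1.4, went from 5.64 and 3.52 CPM to 50.5 and 7.83, so the pools differed more in it than in most members (1.96 ± 0.52). Hist2h2be and Hist1h4d rose by 2.05 ± 0.64 and 1.83 ± 0.58. Without the YO1 cycling sum Hist1h1e stood at 0.17 (adjusted p = 0.95) and Hist1h4d at 1.20 (adjusted p = 0.26), and Hist2h2be was called only in that fit of the 4.

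Hist1h2bc went the other way, with 38.7 and 74.1 CPM in cycling cells and 52.0 and 89.0 in Ltf-high cells (-0.98 ± 0.32, adjusted p = 0.022). H3f3a stood at 1022 and 828 CPM against 1061 and 1009 (-0.81 ± 0.24, adjusted p = 0.013). Both calls were lost when sums were scaled by total UMIs, at -0.34 and -0.17, with adjusted p = 0.45 and 0.61 by edgeR. Under it the all-gene median went to 0.74 from 0.10, and 11 members were called higher and 0 lower, where 37.7% and 6.27% of genes were. Relative to that median both genes stayed below it.

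Among replacement genes, the DNA damage and replication variant H2afx (chromosome 9, 44334694 to 44336077, plus strand) separated the classes most. It stood at 471 and 243 CPM in cycling cells, 7.98 and 11.1 in Ltf-high, 7.41 and 18.5 in Ngp-high Ltf-low and 16.1 and 10.98 in mature cells. The cycling values overlapped none of the others, and it rose by 4.63 ± 0.39 over Ltf-high cells (edgeR adjusted p = 3.3e-07). In cells thinned to 1000 UMIs, H2afx was found in 33.4% and 22.5% of cycling cells and in 0.687% and 1.36% of Ltf-high cells. H2afv, a second H2A.Z gene, went from 38.5 and 40.7 CPM to 388 and 328 (2.54 ± 0.24, adjusted p = 1.1e-06). H1f0, a linker histone known from resting and differentiated cells, went from 9.49 and 6.04 CPM to 58.9 and 55.5 (2.20 ± 0.44, adjusted p = 0.00097). H2afz stood at 2460.4 and 1663 CPM in cycling and 742 and 751 in Ltf-high cells, which did not pass with trimmed mean scaling (0.78 ± 0.31, adjusted p = 0.053) and passed with total UMIs (1.41, adjusted p = 0.0019). H2afy, the macroH2A gene, stood at 581 and 436 against 224 and 184 CPM (0.68 ± 0.29, adjusted p = 0.069).

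Restricted to cycling cells with granule genes, 13 members were higher than in Ltf-high cells and 1, Hist1h2bc, was lower, of 23 tested, where 13.3% and 13.9% of genes were. Members that passed the filter only through cycling cells, such as Hist1h1d, Hist1h2bb and Hist1h2bk, had to differ, so nothing is read from this count. H2afx rose by 5.16, H2afv by 2.80, Hist1h1b by 6.46 and H2afz by 1.21 (edgeR adjusted p = 0.0085), and H3f3a was no longer called (-0.39, adjusted p = 0.29). Hist1h1d stood at 34.7 and 14.6 CPM in these cycling cells, Hist1h2bb at 17.4 and 12.5 and Hist1h2bk at 12.9 and 10.4. The restriction also changed the cell cycle mix. More G2/M than S phase UMIs were found in 500 of its 715 cells in YO1 and 64 of its 65 in YO2. In the whole class this held for 569 of 828 and 121 of 182. H2afx differed between these phases (given below), and the part of the mix was not tested. In the fit of the whole cycling class, H2afx, H2afv and H1f0 stayed called higher without the Ltf-high or cycling sum of either pool. So did Hist1h1b, but its call was largely fixed by the filter, so nothing is read from that. Hist1h2bc was called lower without the YO1 Ltf-high sum (-1.26) and without the YO2 cycling sum (-1.35), and not without the YO1 cycling sum (-0.68) or the YO2 Ltf-high sum (-0.72). H3f3a was called lower only without the YO1 cycling sum (-0.91).

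Grouped by the annotated 3′ end, the replication-dependent genes took different courses. The 23 genes that end at the stem-loop summed to 96.0 CPM (88.1 to 104) in cycling cells of YO1 and 32.0 (23.4 to 42.9) in YO2. They summed to 4.95 and 1.01 in Ltf-high, 7.41 and 0 in Ngp-high Ltf-low and 7.10 and 5.58 in mature cells. The 23 genes that run past it summed to 309 and 226 CPM in cycling, 102 and 187 in Ltf-high and 568 and 643 in mature cells. The 19 genes without the motif, Hist1h2bc among them, summed to 139.8 and 109 in cycling, 55.2 and 92.5 in Ltf-high and 507 and 499.7 in mature cells. By these sums only the first group was highest in cycling cells, and the mature sum of the third was mostly Hist1h2bc (499 and 495 CPM). Some of the 19 have short annotated transcripts, such as 381 bases for Hist1h2bn. Whether the motif lies beyond them was not tested. Cycling cells with granule genes held 102 and 64.7 CPM of the genes that end at the stem-loop. In thinned cells a UMI of these genes was found in 9.41% and 3.93% of cycling cells, 0.412% and 0% of Ltf-high cells and 0.662% and 0.515% of mature cells. The share of 0 came from 441 cells, with an exact binomial 95% upper bound of 0.833%.

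Gene by gene, 46 replication-dependent genes had at least 20 UMIs over the 4 classes. In both pools 30 of them were highest in cycling, 6 in mature and 1 in Ngp-high Ltf-low cells, and in 9 the highest class differed between the pools. The 6 highest in mature cells were 4 of the 18 genes that run past the stem-loop and 2 of the 13 without the motif. Of those 13, 10 were highest in cycling cells. Of the 15 that end at the stem-loop, 12 were highest in cycling cells and none in mature cells. A long annotated transcript did not go with the mature class alone: 8 of the 18, Hist1h2bg and Hist1h4d among them, were highest in cycling cells. These counts and sums describe the annotation groups and carry no test.

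**Figure D3:**
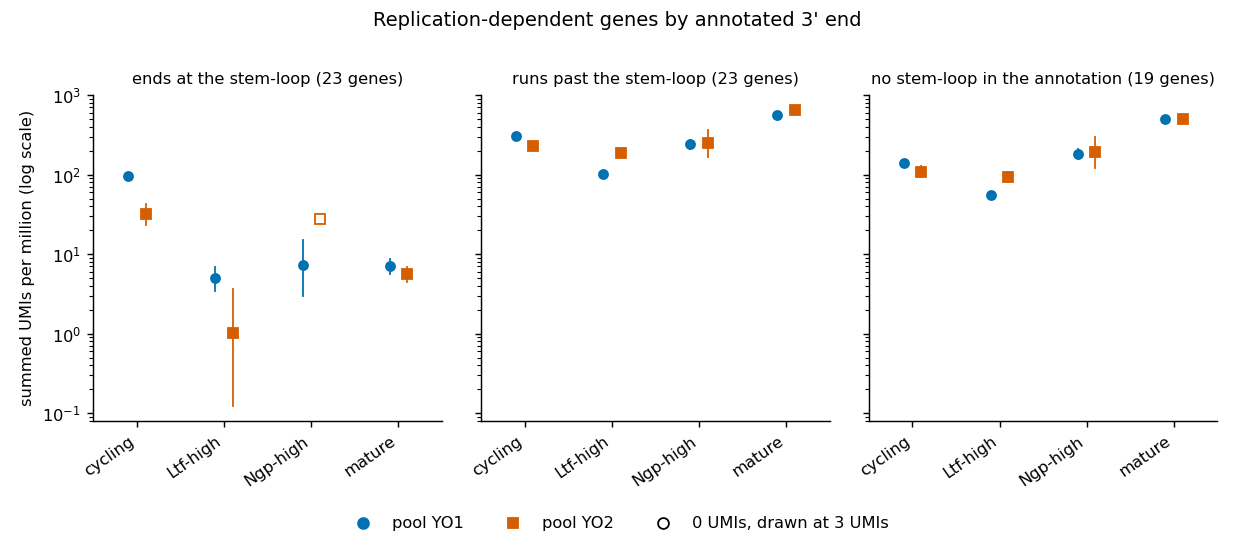
Summed level of replication-dependent genes in CPM (log axis) by neutrophil class, for genes whose annotated transcript ends at the stem-loop, runs past it or lacks it. Circles are YO1 and squares YO2, lines are 95% counting intervals and the open symbol marks 0 UMIs, drawn at 3 UMIs. The first group falls from 96.0 and 32.0 in cycling cells to 7.10 and 5.58 in mature cells, and the other groups are highest in mature cells.

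By histone family, replication-dependent H2B and H1 genes made up most of the mature sum. H2B genes summed to 558 and 554 CPM in mature cells against 61.2 and 102 in Ltf-high cells, and H1 genes to 413 and 474 against 64.5 and 147. H4 genes stood at 69.3 and 73.8 CPM, mostly from Hist1h4i at 62.5 and 67.1. H3 genes were lower in mature cells (7.66 and 8.68) than in cycling cells (42.2 and 24.2), as were H2A genes in YO1 (33.6 against 72.4) but not in YO2 (38.0 against 37.7). Hist1h2bc and Hist1h1c held 46.2% and 37.8% of replication-dependent UMIs in mature cells of YO1, and 7.10% and 16.05% of those in cycling cells of YO1. In YO2 their shares were 43.1% and 40.9% in mature and 20.2% and 30.1% in cycling cells.

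Within cycling cells, those with more UMIs of 20 S phase genes than of 20 G2/M genes (S-leaning, 234 and 50 cells) were set against the reverse (G2M-leaning, 569 and 121 cells). Replication-dependent message counted by poly(A) capture was not higher in S-leaning cells: the sum was 478 and 177 CPM against 570.4 and 461. Of 21 members tested, 0 were higher and 1, H2afx, was lower, where 0.341% and 0.553% of 10851 genes were. H2afx stood at 197 and 62.6 CPM in S-leaning and 595 and 352 in G2M-leaning cells, and it fell by 1.97 ± 0.35 (edgeR adjusted p = 0.0049). Beside the count of 0, an unadjusted edgeR p under 0.05 was reached by 0 members in the higher and 6 in the lower direction. The share of all genes at that unadjusted p was not computed, so nothing is read from it. DESeq2 called 0 higher and 3 lower, where it called 2.71% and 1.17% of genes. H2afv stood at 297 and 163 CPM against 431 and 427 (-0.98 ± 0.24, adjusted p = 0.052).

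The S-leaning cells were not the same mix as the others. Other-lineage markers were found in 25.2% and 88.0% of S-leaning cells and in 19.2% and 36.4% of G2M-leaning cells, and the plasma cell list summed to 13668 CPM in S-leaning cells of YO2. None of the S-leaning cells of YO2 reached the granule gene cutoffs, so a fit on granule-positive cells was not possible. The secondary granule list still summed to 4093 CPM in them, against 66134 in S-leaning cells of YO1. In YO1 alone, granule-positive cells held H2afx at 213 CPM (189 to 238) in 200 S-leaning cells and 589 (563 to 615) in 500 G2M-leaning cells. Their replication-dependent sums were 513 (477 to 552) and 578 (553 to 604). With the pool left out of the model the H2afx call was lost (0 members lower), and it was also lost without the YO2 S-leaning or the YO1 G2M-leaning sum.

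In Ngp-high Ltf-low cells, 0 members were higher and 1 was lower than in Ltf-high cells, where 0.102% and 0.563% of genes were. H2afz fell by 1.96 ± 0.33 (edgeR adjusted p = 0.010), from 742 and 751 CPM to 264 and 194, close to its mature values. The call was lost in the fit without the pool as a block, and without the YO2 sum of either class (-1.70 and -1.80). Hist1h2bc stood at 179 and 194 CPM against 52.0 and 89.0 (1.26 ± 0.33, adjusted p = 0.088). At an unadjusted edgeR p under 0.05 there was 1 member higher and 1 lower, and the share of all genes at that level was not computed. DESeq2 called 2 higher and 1 lower, where it called 4.59% and 3.07% of genes. YO2 gave 33 of these cells. The plasma cell list summed to 2.12 and 7923 CPM in Ngp-high Ltf-low cells, with 5 and 0 of its 6 markers at 0, against 96.7 and 58.8 in Ltf-high cells, and the B cell list to 19.05 and 166 against 16.6 and 12.1. Without the neutrophil-class cells that carried other lineage markers (421 and 30 Ngp-high Ltf-low cells left), H2afz stood at -1.99 (adjusted p = 0.0028) and Hist1h2bc at 1.47, which then passed (adjusted p = 0.014).

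Within mature cells, no histone gene was called in an interferon or an activated state, where few genes of any kind were called. Interferon cells had at least 4 UMIs of Ifit1, Ifit3, Rsad2 and Isg15 (532 and 772 cells), and activated cells at least 3 UMIs of Il1a, Ccrl2, Nr4a3 and Icam1 (322 and 689 cells). Against the other mature cells, 0 of 21 members were higher or lower in interferon cells, where 0.452% of genes were higher and 0% lower. In activated cells 0 of 21 were called, where 0.0461% were higher and 0% lower. A count of 0 lies near these shares, so it says little about the members. DESeq2 called 0 in both. At an unadjusted edgeR p under 0.05, 0 members differed in interferon cells, and 1 was higher and 3 lower in activated cells. The share of all genes at that level was not computed, so nothing is read from these counts. Hist1h2be stood at 27.6 and 34.2 CPM in activated cells and 52.8 and 56.5 in the others (-1.07 ± 0.41, edgeR adjusted p = 0.74). H1f0 stood at 17.7 and 17.1 CPM against 10.2 and 3.91 (1.16 ± 0.51, adjusted p = 0.74).

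With trimmed mean scaling, Hist1h2bc, Hist1h2be, Hist1h4i, H3f3a and H2afj were called lower than in mature neutrophils in all 7 other lineages tested. All 7 comparisons use the same mature sums, so they are not independent. Hist1h2bc, Hist1h2be and Hist1h4i had already been found high in those sums, so their lower values elsewhere are not separate support. Over 7 lineages and 19 members, 15 values were higher and 59 lower by edgeR. With total UMIs the split was 36 higher and 45 lower. That scaling moved the median of all genes up by more than 0.5 in 6 of the 7 lineages. How many of all genes went each way under it was not counted. Hist1h2bc was lower in all 7, by log2 changes from -4.47 to -2.52. It stood at 129 and 129 CPM in B cells, 96.2 and 134 in monocytes and macrophages, 115 and 118 in endothelial cells and 48.9 and 43.8 in T and NK cells, against 499 and 495 in mature cells. In thinned cells a Hist1h2bc UMI was found in 33.6% and 34.3% of mature cells (median depth 1029 and 1353 UMIs) and in 4.76% and 1.61% of T and NK cells (1459 and 2705.5 UMIs). Shares in T and NK cells include any free RNA. Hist1h2be was also lower in all 7, from -5.44 to -3.23, and with total UMIs both genes remained lower in all 7 (Hist1h2bc from -3.42 to -1.96). Hist1h4i was lower in 7, and in 6 with total UMIs (basophils and mast cells -1.14, edgeR adjusted p = 0.20). T and NK cells had 0 Hist1h4i UMIs in both pools.

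Hist1h1c was lower in 6 lineages and was not called in basophils and mast cells, where it stood at 537 and 761 CPM against 409 and 469.9 in mature cells (-0.40 ± 0.35, edgeR adjusted p = 0.46). Basophils and mast cells also held H3f3b at 1849 and 4832 CPM, against 1181 and 1436, and here too the difference did not pass (0.41 ± 0.36, adjusted p = 0.45). With total UMIs Hist1h1c stood at 0.55 (adjusted p = 0.31), and H3f3b rose by 1.33 (adjusted p = 0.012). H3f3a was called lower in all 7 lineages with trimmed mean scaling (-2.47 to -1.02) and in 5 with total UMIs, not in B cells (-0.05) or monocytes and macrophages (-0.39). H2afj was called lower in 7 (-2.41 to -0.98) and in 4 with total UMIs.

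H1f0 was the member most often higher outside neutrophils, in 5 of 7 lineages. It stood at 245 and 203 CPM in endothelial cells, 127 and 58.7 in plasma cells, 49.8 and 52.9 in monocytes and macrophages, and 10.8 and 5.09 in mature neutrophils. It rose by 3.89 ± 0.43 in endothelial and 3.72 ± 0.44 in plasma cells (edgeR adjusted p = 2.5e-06 and 2.8e-06). H2afy rose in dendritic cells, at 805 and 651 CPM against 190.0 and 141 (1.42 ± 0.29, adjusted p = 0.00062). Per lineage, the share of all genes called was 23.8% higher and 26.0% lower in B cells, 26.0% and 26.1% in plasma cells, 18.2% and 23.1% in T and NK cells, 26.5% and 27.0% in monocytes and macrophages, 24.3% and 25.9% in dendritic cells, 7.93% and 17.4% in basophils and mast cells, and 28.8% and 26.5% in endothelial cells. Endothelial cells of YO1 were led by liver sinusoidal genes and those of YO2 by other endothelial genes, and YO2 gave 50 of them. H2afv is given without a direction across lineages, since its sign turned with the scaling in 5 of them.

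**Figure D4:**
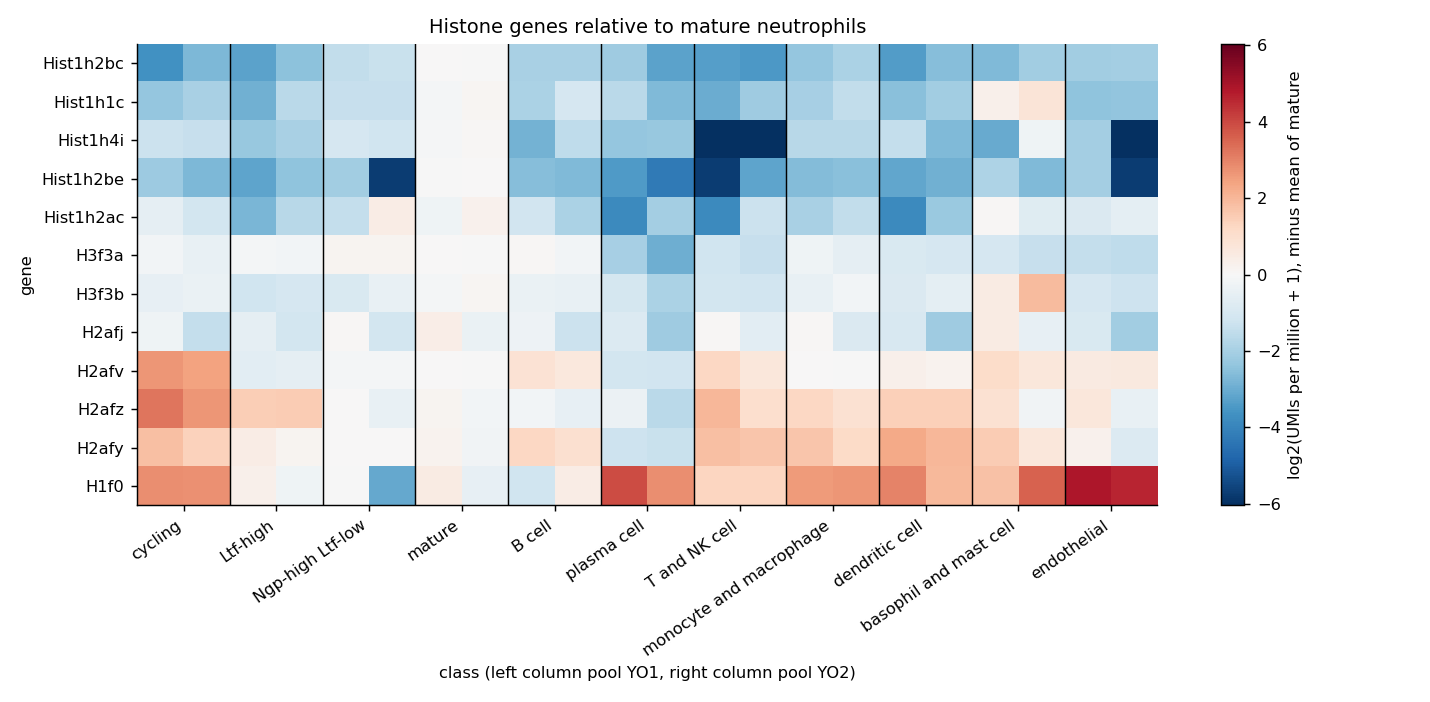
Level of 12 histone genes in each class, as log2(CPM + 1) minus the gene's mean over the mature sums of both pools. The left column of each class is YO1 and the right column YO2. Hist1h2bc, Hist1h2be and Hist1h4i are blue (lower) in every lineage class except Hist1h4i in the YO2 basophils and mast cells, and H1f0 is red (higher) in endothelial and plasma cells.

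Lists of genes that act on histone messages and proteins were compared in the same fits. Of 14 genes tested that act in histone message synthesis and processing, 6 were higher and 1 lower in cycling than in Ltf-high cells (list median 0.82, median of all genes 0.10), where 21.0% and 17.5% of all genes were. Npat, the coactivator of histone gene transcription, rose by 2.71 ± 0.54, the 3′ exonuclease Eri1 by 2.59 ± 0.30, Cstf2 by 1.68 ± 0.42 and the stem-loop binding protein Slbp by 1.40 ± 0.34 (edgeR adjusted p = 0.0039). Lsm10, part of the U7 particle that directs stem-loop processing, fell by 1.37 ± 0.32. Of 22 chaperone and deposition genes, 13 were higher and 0 lower (list median 1.62). Asf1b, which hands H3 and H4 to the replication machinery, rose by 6.38 ± 0.51, Chaf1a of the CAF-1 deposition complex by 4.11 ± 0.55 and Anp32e, an H2A.Z chaperone, by 3.28 ± 0.43. All 20 S phase and all 20 G2/M genes were higher, in cells gated on the division genes Mki67 and Top2a.

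Mature cells were compared with Ltf-high cells over the same lists, where 13.9% of all genes were higher and 10.2% lower. Of the 14 processing genes, Lsm10 (1.14 ± 0.30) and Upf1 (0.89 ± 0.29) were higher, and E2f1 (-2.63 ± 0.36) and Ncbp1 (-1.63 ± 0.37) were lower (list median -0.04, all genes 0.19). Of the 22 chaperone genes, 1 was higher (Ep400, 0.91 ± 0.31) and 4 lower, among them Chaf1b (-2.55 ± 0.49) and Hira, the H3.3 chaperone (-1.37 ± 0.38). Of 14 histone-modifying enzymes, 1 was higher in mature cells (Kat2b, 1.31 ± 0.31) and 0 lower. In cycling cells 5 of them were higher, led by Ezh2 (3.44 ± 0.34) and Suv39h1 (3.31 ± 0.50), and 3 lower. The lowest was Padi4, which converts histone arginines to citrulline during trap release (-2.35 ± 0.37, edgeR adjusted p = 0.00014).

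Between the pools, H2afj, an H2A variant gene on chromosome 6 (136808244 to 136810074, plus strand), stood apart. It was at 218 and 94.0 CPM in cycling, 181 and 119 in Ltf-high and 342 and 197 in mature cells. The ratio of YO1 to YO2 was 2.32 (95% counting interval 1.94 to 2.80) in cycling, 1.52 (1.32 to 1.76) in Ltf-high, 1.74 (1.66 to 1.82) in mature, 1.95 (1.80 to 2.11) in monocytes and macrophages, 2.01 (1.48 to 2.70) in B and 2.54 (1.73 to 3.62) in plasma cells. Of 1766 genes with at least 100 UMIs in each of the 6 classes, H2afj was the 1 gene (0.0566%) at least 1.5-fold higher in YO1 in all of them, and 3 genes were at least 1.5-fold higher in YO2 in all. The other 6 histone genes among the 1766 were not. Within a single class such ratios were common: of genes with at least 100 UMIs, 17.3% in cycling, 10.2% in Ltf-high, 7.52% in mature, 2.93% in monocytes and macrophages, 2.98% in B and 38.2% in plasma cells were at least 1.5-fold higher in YO1. The shares higher in YO2 were 14.9%, 4.2%, 2.12%, 6.02%, 7.16% and 7.38% in the same order. H2afj overlaps an annotated gene on the opposite strand, and the sources used here do not give the strand setting of the counting. It was singled out after its values were seen, and with 1 library per pool the intervals cover counting error only. The pools also differed in makeup, with 637 and 50 endothelial and 37 and 357 plasma cells, and the part of this was not tested.

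**Figure D5:**
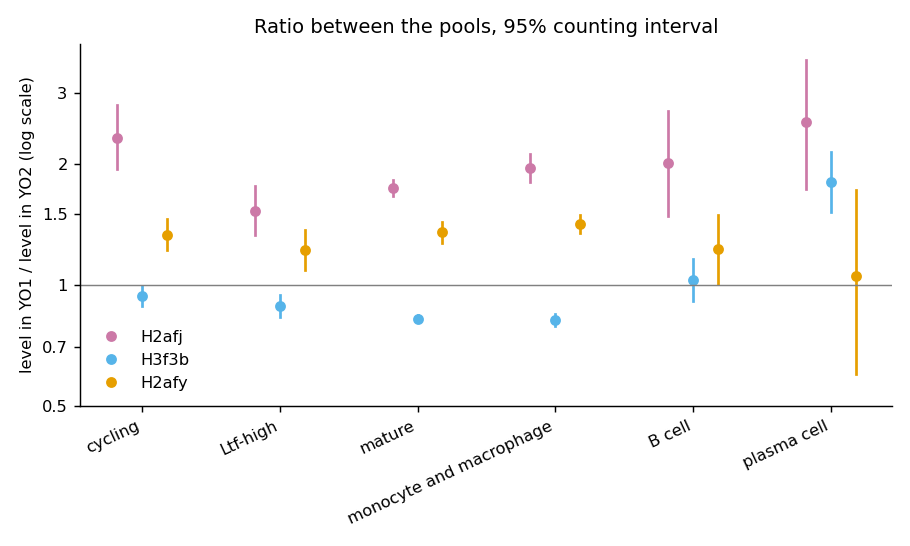
Ratio of the level in YO1 to that in YO2 (log axis) for H2afj, H3f3b and H2afy in 6 classes, with 95% counting intervals. The H2afj ratio lies above 1.5 in all 6 classes, from 1.52 to 2.54, and H3f3b lies below 1 in 4 of them.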

How the data were processed

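BD Rhapsody whole-transcriptome libraries of 2 pools (YO1, YO2) were analysed. The authors deposited a table of UMI counts per gene and cell for each pool, the unit used throughout. Per the submitters' processing notes the build was mm10. Not given in the sources used here: aligner, annotation, strand setting, cell calling and handling of multiply matching reads. Libraries were read as 60 and 42 bases, per the labels' protocols. The sample tag libraries were not analysed here.

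Counts were summed per class and pool for classes with at least 30 cells in each pool (11 classes and 22 sums, or 14 classes and 28 sums with the cycling and mature classes split). Lineages needed at least 3 UMIs from at least 2 of their markers, and 14 marker lists were used. edgeR 4.0.16 (R 4.3.3) fitted a quasi-likelihood model with trimmed mean scaling, its expression filter and the pool as a block, with two-sided tests and Benjamini-Hochberg adjustment over all genes at 0.05. Pools pair the sums by label, since all classes of a pool shared a cartridge. Over 55 pairs of classes the correlation of deviations ran from -0.013 to 0.461 (median 0.070). Each pool is 1 library of mixed animals, so p-values measure the spread between these sums. Intervals are exact Poisson or binomial at 95% and cover counting error only.

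DESeq2 1.42.0, other scalings, filters and gates, and leaving out each sum were alternatives. No doublet caller was run, and an alternative left out the 2% of cells with the most UMIs. On simulated counts for cycling against Ltf-high cells (10203 genes), log2 changes of 3 were found in 50 of 50 genes, of -3 in 48 of 50, of 1 in 7 of 50 and of -1 in 12 of 50. Named were the tested replacement genes, the 10 replication-dependent genes with the most UMIs, and per comparison the 3 highest and 3 lowest called members and genes of 5 lists. The members and lists were chosen with earlier results of these data known. Sums and intervals were computed with pandas 2.3.3, scipy 1.17.1 and numpy 2.4.6 in Python 3.11.15, and plots with matplotlib 3.10.9.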

Additional observations from a re-analysis of the deposited data

How the results depend on the processing

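With 2 sums per class the number of pools limits these results: the Ngp-high Ltf-low class rests on 33 cells in YO2 and cycling cells are a mix of lineages. In the fit with no replicate block, which leaves out the pairing by pool, 0 members were lower in Ngp-high Ltf-low than in Ltf-high cells and 0 in S-leaning than in G2M-leaning cells. The same fit gave 8 higher and 2 lower in cycling, 7 higher and 1 lower in mature cells, and 15 higher and 54 lower values over the lineages.

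For cycling against Ltf-high cells, members called lower were 0 with total UMIs, 0 without the 2% of cells with the most UMIs, and 1 with no filter, without cells carrying other lineage markers, or with granule-gene cells only. Members called higher were 32 with no filter, 15 with DESeq2 and 13 with granule-gene cells. For Ngp-high Ltf-low cells, members higher were 1 with no filter, 2 with DESeq2 and 1 without other-lineage cells. For mature cells, members lower were 2 with total UMIs, no filter, the 5% gate or without the top 2% of cells, and 3 with DESeq2 or without other-lineage cells. For S-leaning cells, members lower were 3 with DESeq2 or a 2-fold margin. Over the lineages, values higher were 36 with total UMIs, 30 with no filter, 40 with DESeq2 and 26 without other-lineage cells. The cause was not tested, except that no filter tests more genes and the cell gates use fewer cells. The share of all genes called is given above for only some of these settings, so the counts alone do not describe the members.

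Leaving out 1 sum gave 5 to 13 members higher and 0 to 1 lower in cycling, 0 to 0 and 0 to 1 in Ngp-high Ltf-low, 5 to 7 and 0 to 1 in mature, 0 to 0 and 0 to 3 in S-leaning, 0 to 0 in both mature states, and 11 to 18 and 51 to 60 over the lineages. H2afv turned positive with total UMIs in B cells (0.76), T and NK cells (1.01), monocytes and macrophages (0.017), basophils and mast cells (0.94) and endothelial cells (0.57), and with DESeq2 in T and NK cells (0.62). Without the YO2 plasma cell sum, Hist1h1b stood at -3.63, Hist1h2bg at -3.20 and Hist1h4d at -5.09 in plasma cells, where the YO1 sum holds 0 UMIs of each. Over all 4 fits that leave out a plasma cell or mature sum, they ran from -3.63 to 4.53, from -3.20 to 4.40 and from -5.09 to 3.99. As a mean of per-cell CPM, the replication-dependent sum was 570.3 and 408.0 in cycling and 1146 and 1192 in mature cells, and the replacement sum in Ltf-high cells of YO1 was 2790.4. Ltf gates of 10 and 3 left too few Ngp-high cells in YO2, and S-leaning cells could not be compared without other-lineage cells, without the top 2% or within granule-gene cells. That last alternative was chosen after seeing the data.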
